A study of Mus musculus with 16 samples.

Results

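The 10 RNAs described here encode enzymes of glycolysis. They are *Gpi1*, *Pfkl*, *Aldoa*, *Tpi1*, *Gapdh*, *Pgk1*, *Pgam1*, *Eno1*, *Pkm* and *Ldha*. All 10 were listed by name, with earlier results of these data known, and have a row among the 12900 RNAs measured. RNA-Seq was performed on protrusions (Ps) and cell bodies (CB) of NIH/3T3 cells, an established mouse fibroblast line. A stably transduced doxycycline-inducible construct expressed human β-globin coding sequence followed by the 3′UTR of β-globin (HBB, the control line) or by the 3′UTR of mouse Pkp4 (Pkp4 cUTR line). Both lines received 1 µg/ml doxycycline for 3 days, were serum-starved and plated for 2 h on filters with 3.0-µm pores, had LPA in the bottom chamber for 1 h, and were then fixed for 10 min in paraformaldehyde at 0.3%, so every group carried a construct and the inducer. Ps and CB came from separate filters, and more filters went into a Ps sample than into a CB sample. Each of the 4 groups held 4 samples. The number of independent lines behind each construct is not given in the sources used here, so a difference between the lines cannot be told apart from a difference between 2 transduced populations.

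Glycolysis splits glucose into pyruvate in the cytosol and yields ATP, and lactate dehydrogenase then turns pyruvate into lactate while restoring the NAD+ that the pathway uses. *Gapdh* is widely used as a reference gene in measurements of RNA. Several of these genes are textbook targets of hypoxia-inducible factors, whose binding sites often contain the letters ACGTG.

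That motif was searched on both strands of the RefSeq promoter windows of GRCm38.p6, which run from 250 bases before to 50 bases after a transcription start site. The search finds ACGTG and its reverse complement CACGT, and a CACGTG site is found by both. No other form of the site was searched for. All 10 genes had at least 1 window, and 6 of the 10 had the motif in one (*Aldoa*, *Gapdh*, *Ldha*, *Pgam1*, *Pgk1* and *Pkm*). It was in 7 of the 16 windows of these genes (43.8%), in 19.6% of all 32851 windows and in 25.5% of the 11596 windows of RNAs in the table. The *Aldoa* windows with a match overlap and hold the same site, which is thus counted more than once. The share of all genes with a match is not given here, and no test compares these shares. One stretch with a match before the start site is shown for each of 5 genes, to let their surroundings be compared. The *Gapdh* match lies after its start site. They are written 5′ to 3′ on the strand of the gene, with the match in capitals. A match is a description of these letters and says nothing about binding.
Aldoa (chr7:126799366-126799390, minus strand): tggctcgagtCACGTcctagcgggg
Pgk1 (chrX:106186940-106186964, plus strand): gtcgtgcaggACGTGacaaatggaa
Pgam1 (chr19:41911747-41911771, plus strand): ctccttgcttACGTGcgctccgtga
Pkm (chr9:59657142-59657166, plus strand): ccgatccggtCACGTccgcgccgca
Ldha (chr7:46845746-46845770, plus strand): gcccagcctaCACGTgggttcccgc

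Levels are log2 CPM (log2 of reads per 1000000 reads of a scaled library), as deposited. The samples held 18660287 to 31260831 reads on the 12900 RNAs, and 3070 to 139836 of them on a member, so that counting error is small beside the spread between samples. The authors' scaling factor of a library was 0.828 to 1.11, below 1 in all Ps samples and above 1 in all CB samples. By the median absolute log2 difference of an RNA from the mean of the other samples of its group, replicate 4 of the CB lay farthest out in both lines (0.16 in HBB and 0.19 in Pkp4 cUTR), where the other samples were at 0.08 to 0.18, so counts of members that rose are also given without that pair. Of the 10 fibroblast markers 8 were in the table, *Col1a1* among them at 11.41 to 13.12 log2 CPM, with *Thy1* and *Lum* not listed, and 2 of the 8 were higher and 6 lower in Ps of each line. Of all RNAs, 28.3% were higher and 28.9% lower in HBB cells, and 28.2% and 28.5% in Pkp4 cUTR cells. Of 8 markers of epithelial, immune and endothelial cells 5 were listed, the highest being *Krt8* at 2.84 to 3.96 log2 CPM. The Pkp4 RNA, whose 3′UTR the construct carries, was 4.44 higher on the log2 scale in CB and 3.32 higher in Ps of the Pkp4 cUTR line (adjusted p = 7.4e-11 and 5.8e-09 from limma).

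The levels of the members spanned a wide range. To compare genes, the CPM was divided by the length of the principal transcript in kb. In HBB CB *Gapdh* was highest with 2559 ± 103 CPM per kb (SD, n = 4), followed by *Pkm* with 1453 ± 55.2, *Aldoa* with 1031 ± 69.8 and *Eno1* with 766 ± 21.1 CPM per kb. *Tpi1* with 616 ± 17.7 and *Ldha* with 561 ± 53.7 CPM per kb did not differ beyond their spread. Below them stood *Pgk1* with 398 ± 41.2, *Gpi1* with 306 ± 4.35, *Pgam1* with 161 ± 12.5 and *Pfkl* with 87.7 ± 9.51 CPM per kb. The first 3 places and the last were the same when all exonic bases of a gene were used as its length, but *Eno1* then moved from place 4 to 6. *Pfkl* encodes the liver-type phosphofructokinase, the enzyme of the main controlled step. By mean log2 CPM, which is not divided by length, *Pgam1* was the lowest member and above 95.3% of all RNAs, and *Pfkl* was above 96.0%. The 10 RNAs together took 1.56 ± 0.06% of all reads in HBB CB, 1.58 ± 0.06% in HBB Ps, 1.59 ± 0.15% in Pkp4 cUTR CB and 1.61 ± 0.12% in Pkp4 cUTR Ps (SD, n = 4), and these differ by less than their spread. *Gapdh* alone took 0.378% in HBB CB and 0.483% in HBB Ps.

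**Figure D1:**
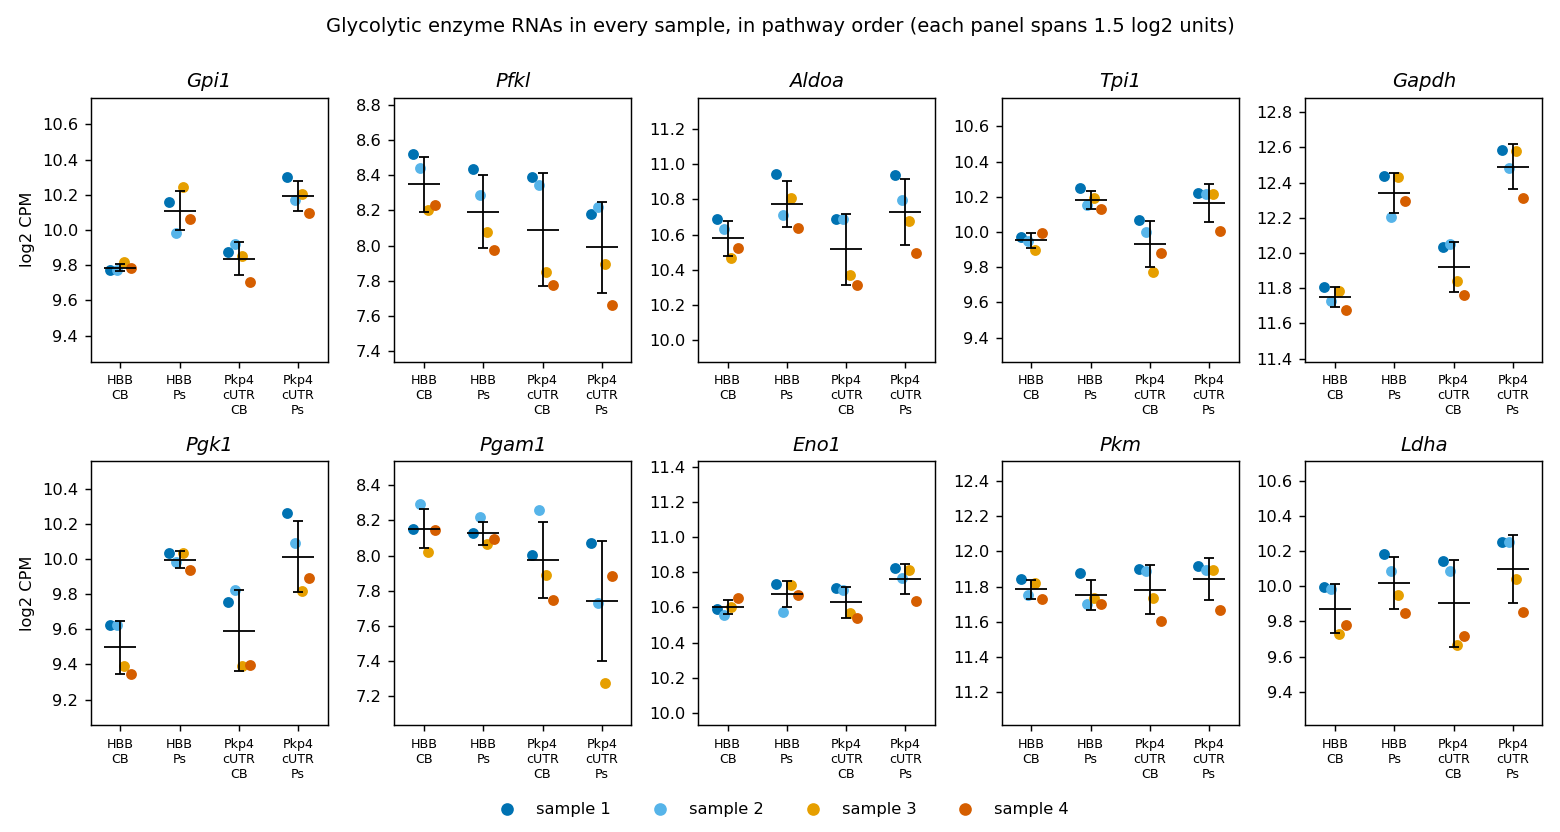
Level of each glycolytic enzyme RNA (log2 CPM, vertical axis) in every sample of the 4 groups, with genes in pathway order, colours for the sample numbers and black bars for the group mean ± SD (n = 4). *Gapdh* and *Gpi1* are higher in all Ps than in all CB samples of both lines, while the groups of *Pkm* overlap.

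The first question was whether these RNAs are found at higher or lower levels in protrusions than in cell bodies. In HBB cells 4 of the 10 rose in Ps (*Gapdh*, *Pgk1*, *Gpi1* and *Tpi1*), by 1.17- to 1.51-fold, and none fell, where 28.3% of all 12900 RNAs rose and 28.9% fell at an adjusted p under 0.05 from limma. The same 4 rose in Pkp4 cUTR cells, by 1.18- to 1.48-fold, and none fell, where 28.2% of all RNAs rose and 28.5% fell. No test sets the members' share against that of all RNAs. The median log2 of Ps over CB was 0.17 over the members and 0.01 over all RNAs in HBB cells, and 0.20 against 0.01 in Pkp4 cUTR cells. No member passed the study's rule for enrichment (more than 2-fold with an unadjusted p under 0.05), which 4.54% of all RNAs passed in HBB and 5.07% in Pkp4 cUTR cells. Without the CB samples numbered 4 of both lines, 4 members rose and none fell in each line.

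Under the authors' scaling the median of all RNAs was 0.01 in both lines, so changes there are nearly relative to the median RNA, and this depends on the scaling. With libraries scaled to their total reads, the median of all RNAs was −0.23 in HBB and −0.25 in Pkp4 cUTR cells, 1940 RNAs rose and 5614 fell in HBB cells in place of 3655 and 3734, and 1797 rose and 5867 fell in Pkp4 cUTR cells in place of 3633 and 3679. In that setting 1 member (*Gapdh*) rose and 3 fell in each line, which were *Eno1*, *Pkm* and *Pfkl* in HBB and *Pkm*, *Pgam1* and *Pfkl* in Pkp4 cUTR cells. Less the median of all RNAs, the members' values were nearly the same in both settings. In HBB cells *Gapdh* was at 0.588 with the authors' scaling and 0.587 with total reads, and *Eno1* at 0.070 and 0.071. With quantile normalization none rose, and *Eno1*, *Aldoa* and *Pkm* fell in both lines. Of all 12900 RNAs, 3631 rose and 3608 fell there in HBB cells, and 3479 rose and 3672 fell in Pkp4 cUTR cells. The Ps fraction also held less of the nuclear RNAs *Malat1* (log2 of −1.85 in HBB and −1.27 in Pkp4 cUTR cells) and *Neat1* (−1.48 and −1.21) and less of the collagen RNA *Col1a1* (−1.26 and −1.17). Of the 5 nuclear RNAs listed, 2 were higher and 2 lower in Ps of each line, where 28.2% to 28.3% of all RNAs were higher and 28.5% to 28.9% lower. Their part in the members' values was not tested. In bulk fractions, a larger share of an RNA in Ps and a smaller share of other RNAs there cannot be told apart.

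**Figure D2:**
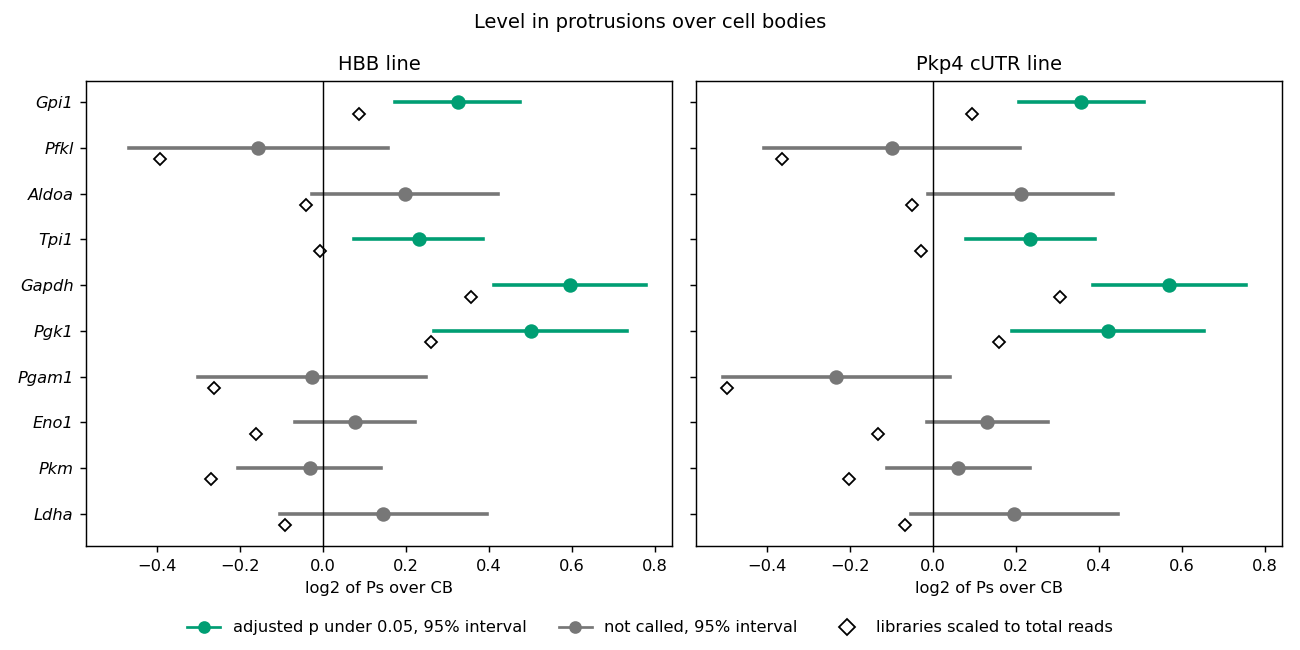
Log2 of Ps over CB (horizontal axis) for each member in HBB (left) and Pkp4 cUTR cells (right), with 95% intervals from limma, green where the adjusted p is under 0.05. The open diamonds, from libraries scaled to total reads, lie lower for all members, and *Gapdh* is the highest at 0.36 and 0.31.

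*Gapdh* (chromosome 6, 125161715 to 125166467, minus strand, GRCm38) encodes the dehydrogenase that oxidises glyceraldehyde 3-phosphate and had the largest difference of the members under the authors' scaling. With libraries scaled to total reads *Pfkl* in HBB (−0.39) and Pkp4 cUTR cells (−0.36) and *Pgam1* in Pkp4 cUTR cells (−0.50) differed by more. In HBB cells *Gapdh* stood at 11.81, 11.73, 11.78 and 11.68 log2 CPM in CB and at 12.44, 12.20, 12.43 and 12.30 in Ps. In Pkp4 cUTR cells it stood at 12.03, 12.05, 11.84 and 11.76 log2 CPM in CB and at 12.59, 12.48, 12.58 and 12.31 in Ps. All Ps samples were above all CB samples of their line. The log2 of Ps over CB was 0.59 in HBB (standard error 0.09, adjusted p = 1.6e-05 from limma) and 0.57 in Pkp4 cUTR cells (standard error 0.09, adjusted p = 3.1e-05), which is 1.51-fold and 1.48-fold, but with quantile normalization it was −0.16 in both lines and not called. Groups without overlap in this direction were found for 4 of the 10 members in HBB and for 2 in Pkp4 cUTR cells, against 25.5% and 22.6% of all RNAs.

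*Pgk1* (chromosome X, 106187100 to 106203699, plus strand) encodes phosphoglycerate kinase, which makes the first ATP of the pathway and acts directly after Gapdh. It was at 9.63, 9.63, 9.39 and 9.35 log2 CPM in HBB CB and at 10.03, 9.98, 10.04 and 9.93 in HBB Ps. In Pkp4 cUTR cells the CB samples were at 9.76, 9.82, 9.39 and 9.40 and the Ps samples at 10.26, 10.09, 9.82 and 9.89 log2 CPM. The HBB groups did not overlap, whereas the highest CB sample of the Pkp4 cUTR line was just above its lowest Ps sample. Log2 of Ps over CB was 0.50 in HBB (standard error 0.11, adjusted p = 0.00086 from limma) and 0.42 in Pkp4 cUTR cells (standard error 0.11, adjusted p = 0.0035), and it fell to 0.26 and 0.16, not called, with libraries scaled to total reads and to 0.25 and 0.21, not called, with quantile normalization.

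*Gpi1* (chromosome 7, 34201330 to 34230336, minus strand) encodes glucose phosphate isomerase, which forms fructose 6-phosphate. Its HBB CB samples lay closely together, at 9.77, 9.78, 9.82 and 9.78 log2 CPM, and its HBB Ps samples were at 10.16, 9.98, 10.24 and 10.06. The Pkp4 cUTR samples were at 9.88, 9.92, 9.85 and 9.70 log2 CPM in CB and 10.30, 10.17, 10.21 and 10.10 in Ps. Ps was above CB without overlap in both lines, with a log2 difference of 0.32 in HBB (standard error 0.07, adjusted p = 0.00085 from limma) and 0.36 in Pkp4 cUTR cells (standard error 0.07, adjusted p = 0.00040). It was 0.09 in both lines, not called, with libraries scaled to total reads and 0.02 and 0.09, not called, with quantile normalization.

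*Tpi1* (chromosome 6, 124810586 to 124814296, minus strand) encodes triose phosphate isomerase, which feeds the other triose into the lower part of the pathway. HBB CB was at 9.97, 9.95, 9.90 and 9.99 and HBB Ps at 10.25, 10.15, 10.19 and 10.13 log2 CPM. Pkp4 cUTR CB was at 10.07, 10.00, 9.77 and 9.88 and Pkp4 cUTR Ps at 10.22, 10.21, 10.22 and 10.00 log2 CPM, so that only the HBB groups were without overlap. The log2 difference was 0.23 in HBB (standard error 0.07, adjusted p = 0.013 from limma) and 0.23 in Pkp4 cUTR cells (standard error 0.07, adjusted p = 0.011), but the direction did not hold with libraries scaled to total reads (−0.01 and −0.03) or quantile normalization (−0.02 and −0.03), and neither setting called it.

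The other 6 members did not pass the test. *Aldoa* (chromosome 7, 126795234 to 126800751, minus strand) encodes the aldolase that splits fructose bisphosphate, and its log2 of Ps over CB was 0.20 in HBB (95% interval −0.03 to 0.42) and 0.21 in Pkp4 cUTR cells (−0.01 to 0.43). *Ldha* (chromosome 7, 46841475 to 46855627, plus strand), the lactate dehydrogenase subunit common in muscle and in growing cells, had values of 0.15 (−0.10 to 0.39) and 0.20 (−0.05 to 0.44). *Eno1* (chromosome 4, 150236721 to 150248879, plus strand), the enolase that forms phosphoenolpyruvate, had values of 0.08 (−0.07 to 0.22) and 0.13 (−0.01 to 0.28). For each of the 3, the Ps and CB samples overlapped in both lines. Their values turned negative with libraries scaled to total reads and with quantile normalization but were positive, at 0.10 to 0.24, with median centring.

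*Pkm* (chromosome 9, 59656368 to 59679375, plus strand), the pyruvate kinase that ends the pathway, was at −0.03 (95% interval −0.21 to 0.14) in HBB and 0.06 (−0.11 to 0.23) in Pkp4 cUTR cells. It was at 11.84, 11.75, 11.82 and 11.73 log2 CPM in HBB CB and at 11.88, 11.70, 11.74 and 11.70 in HBB Ps, and these overlap fully. *Pgam1* (chromosome 19, 41911923 to 41918660, plus strand), the phosphoglycerate mutase, was at −0.03 (−0.30 to 0.25) and −0.23 (−0.51 to 0.04), and without replicate 1 of the Pkp4 cUTR Ps the second value was −0.34 with an adjusted p of 0.030. *Pfkl* (chromosome 10, 77986947 to 78010083, minus strand) was at −0.16 (−0.47 to 0.16) and −0.10 (−0.41 to 0.21), the lowest value of the members in HBB cells.

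*Gapdh* was then set against other RNAs of the same sample, because such a ratio does not depend on how libraries are scaled by a factor. The genes of these ratios were chosen with their values known, so the ratios are a description, with no test. The log2 ratio of *Gapdh* to *Actb*, the β-actin RNA, was 0.69 ± 0.08 in HBB CB and 1.18 ± 0.03 in HBB Ps (SD, n = 4), and 1.05 ± 0.10 and 1.52 ± 0.04 in the CB and Ps of the Pkp4 cUTR line (SD, n = 4). The Ps samples were all above the CB samples in both lines, with a difference of 0.49 in HBB and 0.47 in Pkp4 cUTR cells. Against *Pkm* the log2 ratio was −0.04 ± 0.01 in HBB CB and 0.59 ± 0.08 in HBB Ps, and 0.14 ± 0.03 and 0.65 ± 0.04 in the Pkp4 cUTR line, a difference of 0.63 and 0.51. The ratio of *Gapdh* to *Ppia*, the cyclophilin A RNA, differed by −0.04 in HBB and by 0.05 in Pkp4 cUTR cells, with overlapping samples. *Ppia* itself rose in Ps by 0.63 and 0.52 on the log2 scale (adjusted p = 6.4e-07 and 6.8e-06 from limma), though with quantile normalization it was at −0.07 in HBB cells and was called lower in Pkp4 cUTR cells (−0.18).

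**Figure D3:**
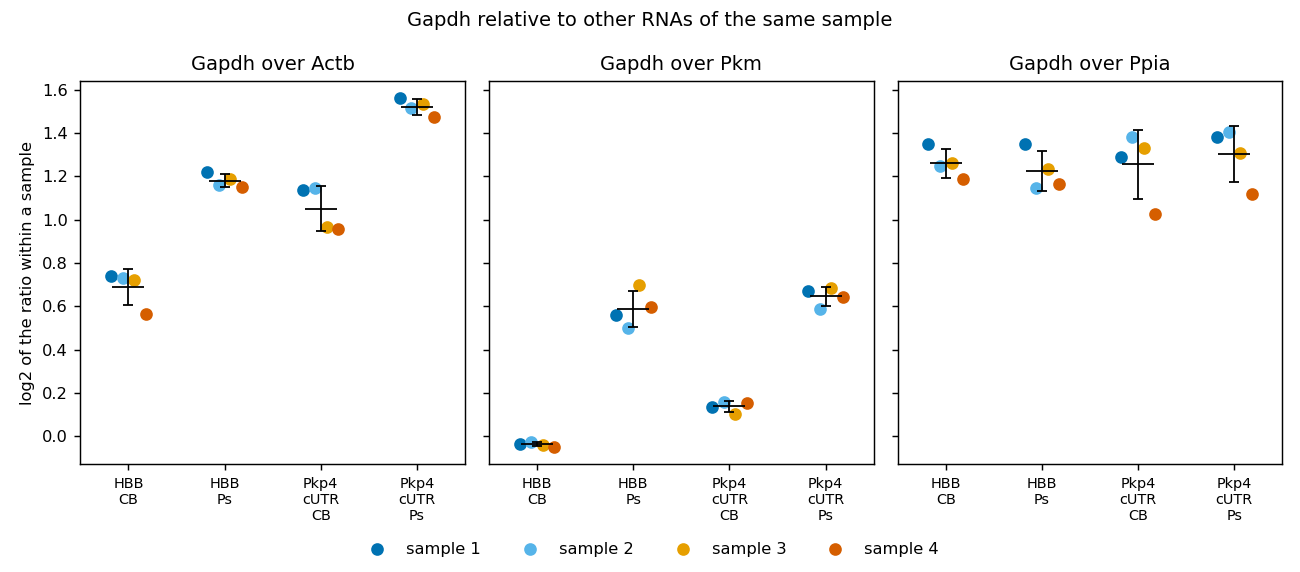
Log2 of the ratio of *Gapdh* to *Actb*, *Pkm* and *Ppia* within each sample (vertical axis) in the 4 groups, with group means ± SD (n = 4). The ratios to *Actb* and *Pkm* are higher in all Ps than in all CB samples of the same line, and the ratio to *Ppia* overlaps between Ps and CB.

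Reads of these genes can be shared with near-identical copies. Transcripts of other genes that matched a member at 90% identity or more over at least 300 bp were counted as copies, and *Gapdh* had 173 of them, of which 169 were pseudogenes and 30 had a row of their own. Together these 30 held 12.5% as many reads as *Gapdh*, most of them on *Gm13394*, a processed pseudogene that is 99.9% identical over 1000 bp. The log2 of Ps over CB of *Gm13394* was 0.57 in HBB and 0.48 in Pkp4 cUTR cells (adjusted p = 0.0048 and 0.015 from limma), and 0.33 and 0.22, not called, with libraries scaled to total reads. In Pkp4 cUTR cells it was not called without replicate 1 of the Ps (0.35) or replicate 4 of the CB (0.34). *Eno1* had copies in the table with 33.2% as many reads as its own row, on *Eno1b* and the processed pseudogene *Gm4735*. For the other members it was at most 0.450%, and for *Pkm*, *Tpi1* and *Pfkl* no copy was in the table. With the reads of the copies added to the members, log2 of Ps over CB of *Gapdh* was 0.59 and 0.56 and that of *Eno1* 0.09 and 0.15, and the same 4 members rose in each line. Reads assigned to *Gapdh*, *Eno1* and these copies are uncertain, because the sources used here do not state how reads with several matches were counted.

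Next, the response to the Pkp4 cUTR construct was examined as the difference between the lines in log2 of Ps over CB, log2(Diff FC). No member passed, and neither did any other RNA at an adjusted p under 0.05 from limma (0 of 12900, which is 0%), while 300 RNAs (2.33%) and no member had an unadjusted p under 0.05. The study applied other cutoffs, on log2(Diff FC) and p-value, to its Ps-enriched RNAs. It reported a subset that was less enriched with the Pkp4 cUTR, and less peripheral *Ddr2* and *Kank2* by in situ hybridization. The 0 given here is thus a count at this threshold only. The members' values ran from −0.21 for *Pgam1* (standard error 0.18, 95% interval −0.59 to 0.18) to 0.09 for *Pkm* (standard error 0.12, interval −0.15 to 0.34). For *Gapdh* it was −0.02, with an interval from −0.28 to 0.23. The 4 members that rose in Ps had intervals between −0.41 and 0.25, so differences beyond these bounds lie outside the 95% intervals of this fit without a replicate block. With a replicate block shared by the lines the standard errors of the members were smaller. That of *Pfkl* was 0.098 in place of 0.21, that of *Ldha* 0.094 in place of 0.17 and that of *Pgk1* 0.11 in place of 0.16. No member passed there either.

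Levels were also compared between the lines within a fraction. In CB no member differed, where 8.97% of all RNAs did at an adjusted p under 0.05 from limma, and in Ps none differed, where 7.16% of all RNAs did. These comparisons share their samples with those of Ps and CB. Samples of the 2 lines with the same number moved alike, so the fit with a replicate block shared by the lines is given as well. It called 11.2% of all RNAs in CB, among them *Pfkl*, and 10.3% in Ps, among them *Pgam1*.

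*Pfkl* was at 8.52, 8.44, 8.20 and 8.23 log2 CPM in HBB CB and at 8.39, 8.34, 7.85 and 7.78 in Pkp4 cUTR CB. The groups overlap, but each Pkp4 cUTR sample is below the HBB sample of the same number. Its log2 of Pkp4 cUTR over HBB was −0.26 in CB, with an adjusted p of 0.32 from limma without the block and 0.025 with it. In Ps it was −0.20, with an adjusted p of 0.45 without and 0.077 with the block.

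*Pgam1* was at 8.13, 8.22, 8.07 and 8.10 log2 CPM in HBB Ps and at 8.07, 7.73, 7.28 and 7.89 in Pkp4 cUTR Ps. Replicate 3 of the Pkp4 cUTR Ps was the lowest, and the groups overlap only at their nearest samples. Its log2 of Pkp4 cUTR over HBB was −0.39 in Ps, with an adjusted p of 0.083 from limma without the block and 0.036 with it. Without replicate 1 of the Pkp4 cUTR Ps it was −0.50 with an adjusted p of 0.023. *Gapdh* was higher in the Pkp4 cUTR line by 0.17 in CB and 0.15 in Ps, values that did not pass with or without the block (adjusted p = 0.25 and 0.34 without it).

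A pattern shared by lines and fractions was seen in the sample numbers, and it was chosen for description after its values were seen. In *Ldha* and *Pfkl* the samples numbered 1 and 2 were above those numbered 3 and 4 in all 4 groups, which held for 2.25% of all RNAs. *Ldha* was at 10.00 and 9.98 against 9.73 and 9.78 log2 CPM in HBB CB, 10.18 and 10.09 against 9.95 and 9.85 in HBB Ps, 10.14 and 10.09 against 9.66 and 9.72 in Pkp4 cUTR CB, and 10.25 and 10.25 against 10.04 and 9.85 in Pkp4 cUTR Ps. The mean of numbers 1 and 2 was above that of 3 and 4 by 0.30 for *Ldha* and by 0.39 for *Pfkl* on the log2 scale, averaged over the groups. *Pgk1*, *Aldoa* and *Pgam1* had the pattern in 3 groups, *Pkm* in 2, and *Gapdh*, *Eno1*, *Tpi1* and *Gpi1* in 1.

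The labels say nothing of what the numbers stand for. Across the 16 samples, the deviations of *Ldha* and *Pfkl* from their group means correlated with r = 0.99 and those of *Ldha* and *Aldoa* with r = 0.93, while *Pgam1* and *Eno1* had r = 0.04, given as a description of samples that share a library and a scaling. Under the authors' scaling this spread between the numbers was larger than the difference between Ps and CB for *Pfkl* and *Ldha*, but with libraries scaled to total reads *Pfkl* differed between Ps and CB by −0.39 and −0.36.

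**Figure D4:**
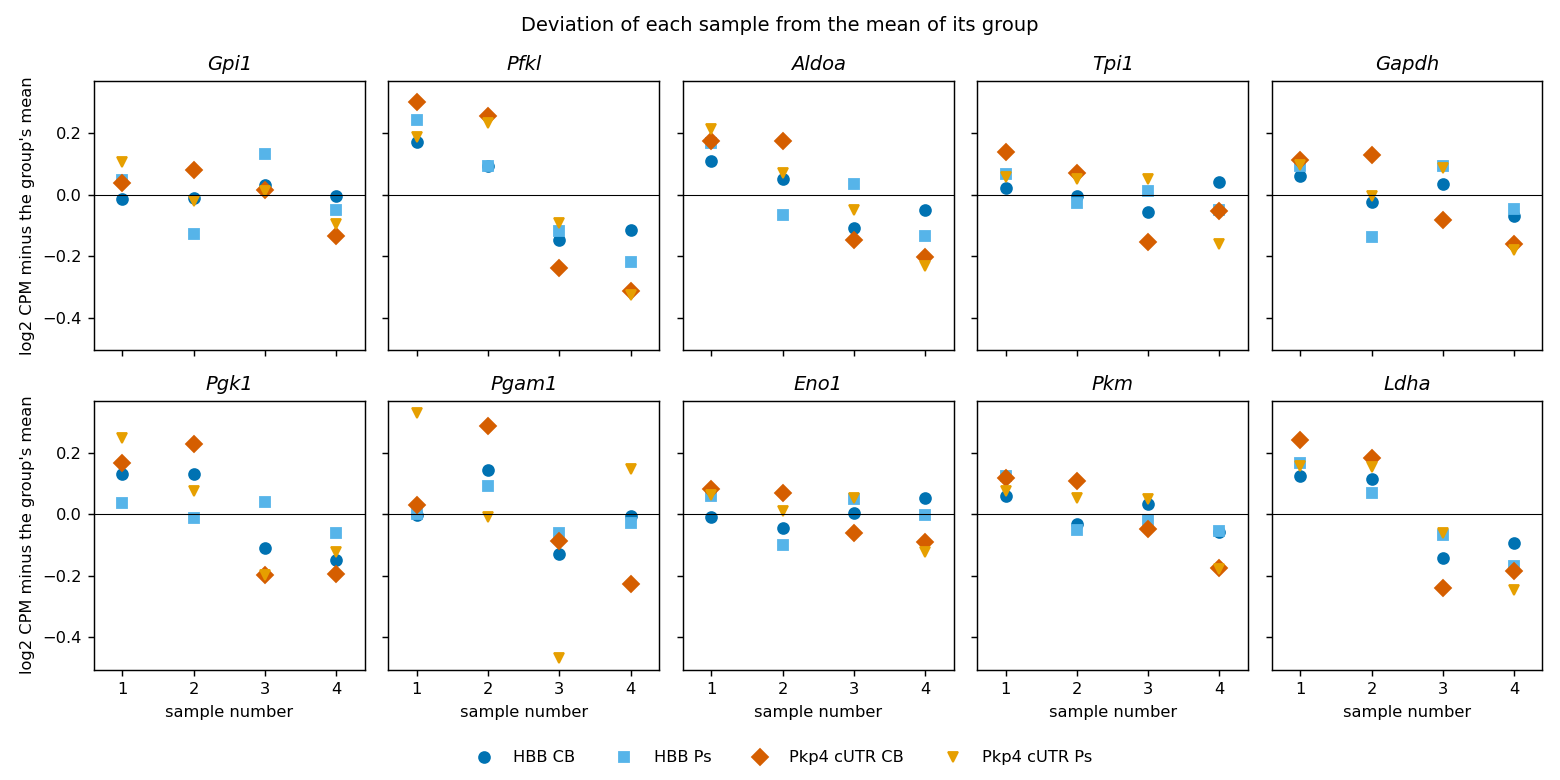
Deviation of each sample from its group's mean (log2 CPM, vertical axis) by sample number, with one symbol for each of the 4 groups. In *Ldha* and *Pfkl* the symbols at numbers 1 and 2 are above 0 and those at 3 and 4 below 0 in all 4 groups, while *Gpi1* has this in no group.

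The RNAs nearest to the members in their pattern over the 16 samples were sought among 10144 other RNAs with a mean log2 CPM above 1, by the correlation with the members' mean centred level. These were *Sdha* (r = 0.93), *Tpm1* (r = 0.92), *Slc25a1* (r = 0.92), *Gm13375* (r = 0.89) and *Tvp23bos* (r = 0.89). *Sdha*, the flavoprotein subunit of succinate dehydrogenase, had a log2 of Ps over CB of 0.20 in HBB and 0.17 in Pkp4 cUTR cells, which turned negative with libraries scaled to total reads. *Tpm1* encodes a tropomyosin and *Slc25a1* the mitochondrial citrate carrier.

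The pathways around these 10 enzymes were then examined. Of 20 other isozymes and enzymes of glycolysis, 10 were in the table, and 2 of them rose and 1 fell in Ps of HBB cells, with a median log2 of 0.03. Of all RNAs, 28.3% rose and 28.9% fell there. *Bpgm*, which makes 2,3-bisphosphoglycerate, rose by 0.33 (standard error 0.08, adjusted p = 0.0018 from limma), and *Ldhb*, the other lactate dehydrogenase subunit, rose by 0.35 (standard error 0.09, adjusted p = 0.0027), although with libraries scaled to total reads both were near 0.1 and not called. *Adpgk*, the ADP-dependent glucokinase, fell by 0.79 (standard error 0.09, adjusted p = 1.2e-06). The hexokinase RNA *Hk1* was at −0.22 with an adjusted p of 0.054 from limma. It passed with libraries scaled to total reads (−0.46), with quantile normalization (−0.22) and with the replicate block shared by the lines (−0.22). It also passed without replicate 4 of the HBB CB (−0.28), of the Pkp4 cUTR CB (−0.22) or of both (−0.28). Without replicate 1 or replicate 3 of the Pkp4 cUTR Ps it passed as well (−0.22 each). The other phosphofructokinases *Pfkm* and *Pfkp* were at −0.12 and −0.09, the enolases *Eno1b* and *Eno3* at 0.15 and 0.14, and the barely detected *Aldoc* at 0.49, none of them called, while *Pfkm* (−0.35) and *Pfkp* (−0.33) were called with libraries scaled to total reads and *Eno1b* (0.20) without replicate 4 of the HBB CB. *Eno1b* passed in Pkp4 cUTR cells (0.23, adjusted p = 0.018), but not without replicate 3 of their Ps (0.17) or of their CB (0.18) or with libraries scaled to total reads (−0.03). In these cells 2 RNAs of the list were higher (*Ldhb* and *Eno1b*) and 1 lower (*Adpgk*), where 28.2% of all RNAs were higher and 28.5% lower. *Bpgm* was at 0.16 there and not called (adjusted p = 0.10 from limma).

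The next list held RNAs of glucose and lactate transport and of the control of phosphofructokinase. Of 7 RNAs in the table, 5 fell and none rose in Ps of each line, where 28.9% of all RNAs fell in HBB and 28.5% in Pkp4 cUTR cells, and the median was −0.52 in HBB and −0.53 in Pkp4 cUTR cells. The glucose transporter *Slc2a1* fell by 0.88 in HBB (standard error 0.14, adjusted p = 2.5e-05 from limma) and the lactate and pyruvate transporter *Slc16a1* fell by 0.70 (standard error 0.13, adjusted p = 0.00014). *Pfkfb4* and *Pfkfb2*, whose enzymes set the level of fructose 2,6-bisphosphate, fell by 0.51 and 0.58 (adjusted p = 3.9e-05 and 0.0029). The basigin RNA *Bsg*, which encodes a partner of the lactate transporters, did not pass in this comparison (−0.17). It was called with libraries scaled to total reads (−0.40) or quantile normalization (−0.70). It was also called without replicate 1 of the HBB Ps (−0.21) or replicate 4 of the Pkp4 cUTR Ps (−0.17). It was lower in the Pkp4 cUTR than in the HBB line by −0.31 in CB and −0.29 in Ps (adjusted p = 0.013 and 0.019), but was not called in CB without the samples numbered 4 (−0.30) or in Ps without replicate 1 of the HBB (−0.25) or replicate 4 of the Pkp4 cUTR line (−0.23). Of the gluconeogenesis list 3 RNAs of 7 were in the table, and *G6pc3* and *Pcx* fell by 0.49 and 0.38 in Ps of HBB cells (adjusted p = 1.8e-06 and 0.00090). *Pcx*, the pyruvate carboxylase RNA, was also lower in the Pkp4 cUTR line, with a log2 of −0.99 in CB and −0.91 in Ps (adjusted p = 6.2e-07 and 3.6e-06).

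Of 12 RNAs for pyruvate entry into mitochondria, 6 rose and none fell in HBB and 5 rose and none fell in Pkp4 cUTR cells, where 28.3% and 28.2% of all RNAs rose. The pyruvate carrier RNAs *Mpc2* and *Mpc1* rose by 0.91 and 0.51 in HBB cells (adjusted p = 9.3e-06 and 4.5e-06 from limma), and *Dld* and *Pdha1* of the pyruvate dehydrogenase complex rose by 0.81 and 0.74 (adjusted p = 7.8e-06 and 1.9e-06). Of 17 RNAs of the tricarboxylic acid cycle, 11 rose and 1 fell in HBB and 8 rose and 1 fell in Pkp4 cUTR cells, with a median of 0.28 and 0.21. *Sucla2*, a succinyl-CoA ligase subunit, rose by 1.02 (adjusted p = 9.4e-06) and *Sdhc*, a subunit of succinate dehydrogenase, by 0.46 (adjusted p = 6.0e-06), while *Idh3b* and *Idh3a* were at 0.35 and 0.37, called, but at 0.11 and 0.14, not called, with libraries scaled to total reads.

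Of 8 RNAs of the pentose phosphate pathway, 3 rose and 2 fell in each line, which is near the shares of all RNAs (28.3% higher and 28.9% lower in HBB cells). *H6pd*, the hexose 6-phosphate dehydrogenase of the endoplasmic reticulum, fell by 1.05 in HBB cells (adjusted p = 5.0e-07 from limma) and *Pgd*, the cytosolic 6-phosphogluconate dehydrogenase, by 0.28 (adjusted p = 0.0023). *Pgls* and *Rpe*, a lactonase and an epimerase of the pathway, rose by 0.57 and 0.45 (adjusted p = 0.0029 and 0.0014), though *Rpe* was at 0.22 and not called with libraries scaled to total reads. In the hypoxia list, 2 of 14 RNAs rose and 5 fell in each line. *Hif1a*, which encodes the regulated subunit of the factor, and *Bnip3l* rose by 0.62 and 0.70 in HBB cells, and *P4ha2* and *Vegfa* fell by 0.91 and 0.98 (adjusted p between 2.8e-08 and 0.00012).

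Of 9 common reference genes 4 rose and 2 fell in Ps of HBB cells, and 3 rose and 2 fell in Pkp4 cUTR cells, not far from the 28.3% higher and 28.9% lower of all RNAs in HBB cells. *Hprt* rose by 0.75 and *Ywhaz* by 0.28 in HBB cells (adjusted p = 4.5e-06 and 0.0024 from limma), *Gusb* fell by 0.35 (adjusted p = 0.00029), and *Actb* was at 0.10 and not called. With libraries scaled to total reads *Ywhaz* was at 0.04 and not called, and *Actb* was called lower (−0.13), as it was with quantile normalization (−0.64). The change of *Gapdh* lay between those of *Hprt* and *Ywhaz*. *Arpc3* and *Rhoa*, which the study used as RNAs with a diffuse distribution, rose by 0.50 and 0.32 (adjusted p = 3.1e-05 and 0.00034), although *Rhoa* was at 0.09 and not called with libraries scaled to total reads. The RNAs that the study used as markers of protrusions had larger values in HBB cells than any member, with *Cyb5r3* at 3.14 and *Rab13* at 2.36. The study chose these markers and diffuse RNAs in part on related data, so their direction is no independent evidence.

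**Figure D5:**
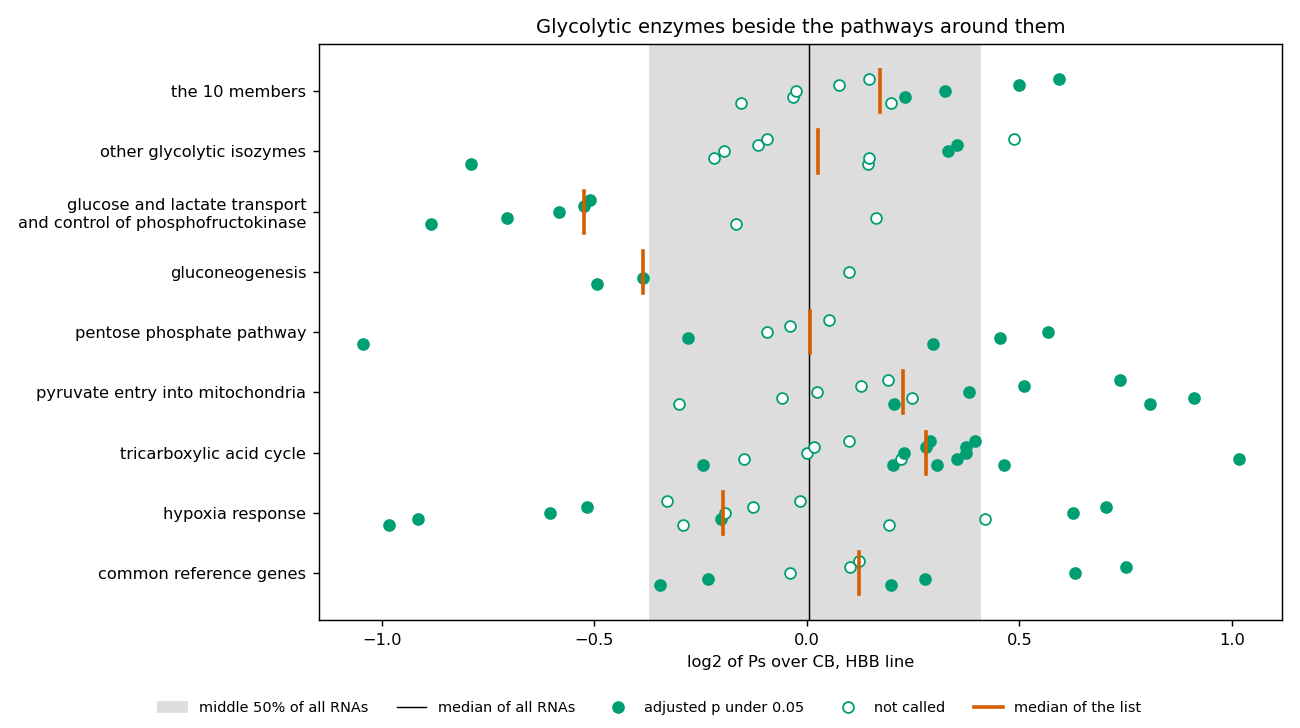
Log2 of Ps over CB in HBB cells (horizontal axis) for the 10 members and for RNAs of pathways around them, with 1 point per RNA, filled where the adjusted p is under 0.05, and an orange line at each list's median. The grey band holds the middle 50% of all 12900 RNAs, from −0.37 to 0.41, and of the members *Gapdh* and *Pgk1* lie beyond it.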

How the data were processed

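RNA-Seq of 16 samples (4 groups of 4) was used. The methods describe the libraries as stranded total RNA, and the kit they name is TruSeq Stranded mRNA. As the methods state, the authors aligned reads to mm10 with STAR 2.4.2a, counted them per gene with Rsubread and normalized them with limma-voom (limma 3.26.1, by the submitters' processing notes), and they deposited log2 CPM of 12900 RNAs. All values could be turned back into whole reads (tolerance 0.01). These reads were fitted by limma-voom (limma 3.58.1, R 4.3.3) with 4 group means, keeping the library sizes as the authors had scaled them. Benjamini-Hochberg adjustment ran over all 12900 RNAs, and an adjusted p under 0.05 was called. The fit was also run on simulated reads with independent samples and a single spread. That run does not bear on the scaling of libraries or on the likeness of same-numbered samples. Samples were grouped by their labels. The study describes the 4 samples of a group as independent replicates.

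The members and lists were chosen with earlier results of these data known. All members were named, with up to 4 RNAs per list by smallest p in HBB cells, isozymes of member reactions, and the 5 RNAs of nearest pattern. A few others (*Bsg*, *Actb*, *Col1a1* and *Krt8*) were named after their values were seen. Copies were found with blastn 2.17.0 on GENCODE vM21, in which 12300 RNAs had 1 gene of their symbol. Intervals cover counting error and sample spread, and 3 reads correspond to 0.0890 to 0.176 CPM.

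The replicate numbers come from the labels. Across 10154 RNAs with a mean log2 CPM above 1, deviations of same-numbered samples from their group means correlated at 0.33 to 0.63 between the CB of the lines and at 0.20 to 0.39 between their Ps, which pairs the lines by number. Between Ps and CB they ranged from 0.046 to 0.39 in HBB and from −0.36 to 0.0025 in Pkp4 cUTR cells, which does not.

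Alternatives were a fit without precision weights, other scalings, an offset of 1 CPM, a filter, replicate blocks, other thresholds, samples left out and, added after seeing the data, reads of copies added to the members.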

Additional observations from a re-analysis of the deposited data

Results flagged for a closer look

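Among the 40 groups of 4 samples (10 members in 4 groups), 2 held a sample far from the other 3, with a gap to the nearest of them above Dixon's 95% critical value, and chance alone gives about 1 in 20 such groups. Both were replicate 4 of the Pkp4 cUTR Ps. *Pkm* was at 11.67 log2 CPM there and at 11.89 to 11.92 in the other 3 samples. *Tpi1* was at 10.00 log2 CPM there and at 10.21 to 10.22 in the other 3.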

How the results depend on the processing

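The count of 4 members higher in Ps held in HBB and in Pkp4 cUTR cells without precision weights, with median centring, with log2(CPM + 1), with a mean log2 CPM above 0.5, without the CB samples numbered 4 and with the reads of copies added. With libraries scaled to total reads it was 1 in each line, with 3 lower, and with quantile normalization 0, with 3 lower, and the cause was not tested. At an adjusted p under 0.01 it was 3 in each line and by the study's rule 0. Leaving out each sample in turn gave 4 in HBB and 4 to 6 in Pkp4 cUTR cells. The 6, with *Eno1* and *Aldoa*, came without replicate 4 of the Pkp4 cUTR Ps. Members called lower were 0 to 1 in Pkp4 cUTR cells, and 0 to 1 for the Ps of Pkp4 cUTR over HBB, each time *Pgam1* without replicate 1 of the Pkp4 cUTR Ps.

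With a replicate block fitted within each line, 5 members rose in HBB (*Aldoa* in addition) and 6 in Pkp4 cUTR cells (*Aldoa* and *Ldha*), and the block shared by the lines gave 5 and 6. The shares of all RNAs called higher or lower in Ps are not given here for these blocks or for samples left out. Ps and CB share only a number, and of 8 samples 3 in HBB and 0 in Pkp4 cUTR cells correlated best with their own number. In the paired comparison of the lines the shared block gave 1 member lower in CB (*Pfkl*) and 1 lower in Ps (*Pgam1*), and no other member's call changed there.

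With libraries scaled to total reads these values changed sign: in HBB cells *Eno1* (−0.16), *Aldoa* (−0.040), *Ldha* (−0.092), *Tpi1* (−0.0062), *Eno1b* (−0.089), *Eno3* (−0.092), *Pck2* (−0.14), *Actb* (−0.13) and *Sdha* (−0.035), and in Pkp4 cUTR cells *Eno1* (−0.13), *Aldoa* (−0.052), *Ldha* (−0.068), *Pkm* (−0.20), *Tpi1* (−0.029), *Eno1b* (−0.028) and *Sdha* (−0.095). With quantile normalization they were in HBB cells *Gapdh* (−0.16), *Eno1* (−0.56), *Aldoa* (−0.45), *Ldha* (−0.10), *Tpi1* (−0.017), *Actb* (−0.64) and *Ppia* (−0.073), and in Pkp4 cUTR cells *Gapdh* (−0.16), *Eno1* (−0.48), *Aldoa* (−0.34), *Ldha* (−0.048), *Pkm* (−0.68), *Tpi1* (−0.027) and *Ppia* (−0.18). Leaving out samples moved *Pgam1* between −0.069 and 0.021 in HBB and *Pfkl* between −0.21 and 0.0090 in Pkp4 cUTR cells. Each member had at least 3070 reads in a sample.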
